A study of Mus musculus with 9 samples.

Results

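Neurog1, Neurog2, Neurod1, Neurod2, Neurod4, Neurod6, Nhlh1 and Nhlh2 encode neural transcription factors of the basic helix-loop-helix (bHLH) class, and they are the 8 genes described here, taken by symbol from a table of 21210 genes. All 8 passed the filter on low values, as did 15828 genes in all. The tissue was the lateral cortex of embryos at day 14.5 of development (mouse strain C57BL/6), freed of meninges and ganglionic eminences and dissociated with papain. Cells were then sorted on fluorescent reporters of Btg2, an antiproliferative gene that marks progenitors about to produce neurons, and of Tubb3, which encodes a tubulin of neurons. The sorted groups were proliferating progenitors (red-negative), differentiating progenitors (red-positive) and neurons (green-positive). Each is represented by 3 strand-specific poly-A libraries, called 1, 2 and 3. All groups carry the same label for genotype, Btg2GFP/Tubb3GFP, which names green for both reporters. The titles name red (RFP) and green (GFP) gates without a gene, and red is taken here as the Btg2 reporter. Each library came from a pool of sorted cells from several embryos of different litters, and the series calls the libraries biological replicates. The sort therefore defines each group by reporter fluorescence, not by a single cell type.

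Proneural bHLH factors bind DNA as dimers with E proteins and switch on genes of neuronal differentiation. In the dorsal cortex Neurog1 and Neurog2 act in progenitors that give rise to glutamatergic neurons, while NeuroD and Nhlh (also called NSCL or HEN) factors act later in the same cascade. Id proteins bind E proteins without binding DNA, and Hes and Hey factors, targets of Notch, repress proneural genes, so both groups counteract the cascade.

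All 8 genes rose from proliferating to differentiating progenitors, and they parted at the step to neurons. Neurog1, Neurog2 and Neurod4 fell, Neurod2, Neurod6 and Nhlh2 rose again, and Neurod1 and Nhlh1 did not pass the test. At the first step 8 of 8 genes were higher and 0 lower, beside 13.8% of all tested genes called higher and 11.1% called lower (24.9% in all). At the second step 3 genes were higher and 3 lower, beside 27.6% of tested genes called higher and 26.4% called lower (54% in all). Between neurons and proliferating progenitors 5 genes were higher and 3 lower, beside 32.2% and 31.1% of tested genes (63.3% in all). The median log2 change of the 8 genes was 3.89 at the first step, 0.09 at the second and 4.44 between neurons and proliferating progenitors, beside -0.02, -0.01 and -0.02 over all tested genes. The comparisons share libraries, so they are not independent of each other. In these bulk samples fewer cells of a type and less RNA per cell cannot be told apart. Values are normalised read counts, and group values are mean ± SD (n = 3). Log2 changes are given ± SE on the log2(value + 1) scale. Adjusted p-values come from limma over all tested genes, with a threshold of 0.05. Unless credited to the authors' deposited table, folds are these log2 changes taken off the log scale. They can therefore differ from the ratio of the group means.

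**Figure D1:**
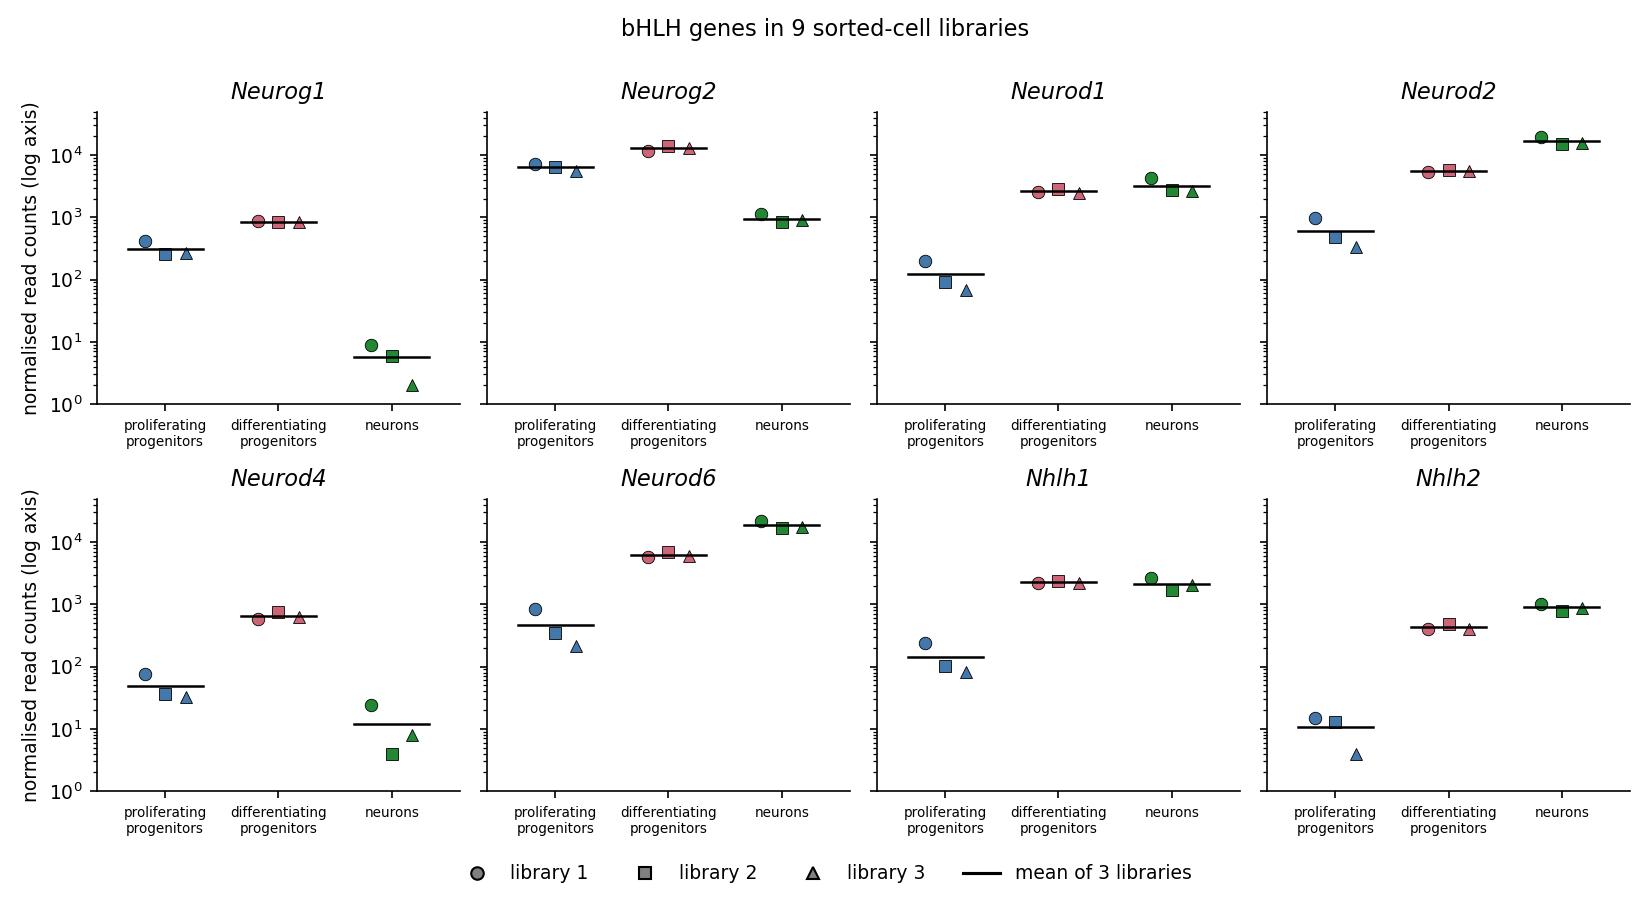
Normalised read counts of the 8 bHLH genes (vertical axis, log scale) in each of the 9 libraries, by sorted group on the horizontal axis, with one marker shape per library number and a bar at the group mean. Differentiating progenitors lie above proliferating progenitors for every gene, and Neurog1, Neurog2 and Neurod4 drop in neurons, to means of 5.67, 952 and 12.

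Normalised totals were 17531558 to 22076409 per library, and the reads behind them were estimated at 12700000 to 27600000. Btg2 averaged 8440 in proliferating progenitors, 16213 in differentiating progenitors and 3111 in neurons, and Tubb3 averaged 1742, 11248 and 46276. Cells were sorted on reporters of these genes, so their order shows only which libraries belong to which gate and is no independent check of the cells. The summed level of 7 radial glia markers ran from 101915 to 120564 in proliferating progenitors, from 45333 to 68053 in differentiating progenitors and from 5720 to 7082 in neurons. The 5 intermediate progenitor markers summed to 15803 to 19071, 45764 to 60738 and 9444 to 12158 in the same order, and the 7 neuron markers to 7106 to 11194, 37831 to 44606 and 145774 to 176130. The intermediate progenitor list holds Btg2 and the neuron list holds Tubb3, the reporter genes. Without these, the other 4 intermediate progenitor markers summed to 7801 to 10119, 31742 to 40840 and 6799 to 8859, and the other 6 neuron markers to 5948 to 8683, 27161 to 31509 and 105842 to 125900. Radial glia markers were thus highest in proliferating progenitors, intermediate progenitor markers in differentiating progenitors and neuron markers in neurons, also without the reporter genes.

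Neurog2, the main proneural factor of dorsal cortical progenitors, had the highest level per length of the 8 genes in both progenitor groups. It stood at 7302, 6454 and 5509 in libraries 1, 2 and 3 of proliferating progenitors, at 11775, 13811 and 12947 in differentiating progenitors, and in neurons at 1116, 848 and 893. No group overlapped another, and every differentiating progenitor library was the higher of the 2 progenitor groups. Neurog2 rose 2.01-fold at the first step, from 6422 ± 897 to 12844 ± 1022 (log2 change 1.01 ± 0.14, adjusted p = 0.000781). In neurons it fell to 952 ± 144, which was 13.5-fold below differentiating progenitors (log2 change -3.76 ± 0.14, adjusted p = 9.27e-08) and 6.74-fold below proliferating progenitors (log2 change -2.75 ± 0.14, adjusted p = 1.84e-07).

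Neurog1, its close relative with overlapping function in the cortex, showed the same order at a lower level. Its values were 414, 260 and 263 in proliferating progenitors, 861, 847 and 854 in differentiating progenitors, while the neuron libraries held 9, 6 and 2. The differentiating progenitor libraries lay within a narrow band, and neurons held almost no reads. Neurog1 rose from 312 ± 88.1 to 854 ± 7.0 (log2 change 1.48 ± 0.40, adjusted p = 0.0242) and then fell to 5.67 ± 3.51 (log2 change -7.17 ± 0.40, adjusted p = 6.36e-07). The rise is the least secure of the first-step calls: without proliferating progenitor library 2 or 3, or any 1 differentiating progenitor library, the adjusted p was 0.0502 to 0.085, at log2 changes of 1.37 to 1.49. The 144-fold drop in neurons rests on single-digit values and is imprecise.

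Neurod4, a bHLH factor that acts with or after the Neurogenins, was the other gene found mostly in differentiating progenitors. Proliferating progenitors held 76, 36 and 33, differentiating progenitors 589, 741 and 634, and neurons 24, 4 and 8. Every differentiating progenitor library exceeded every library of the other groups, and neurons lay below proliferating progenitors without overlap. Neurod4 rose from 48.3 ± 24.0 to 655 ± 78.1 (log2 change 3.83 ± 0.54, adjusted p = 0.00105) and fell to 12 ± 10.6 (log2 change -5.97 ± 0.54, adjusted p = 1.46e-05). Against proliferating progenitors, neurons were lower by 4.42-fold (log2 change -2.14 ± 0.54, adjusted p = 0.0069). The neuron value rests on few reads, and that fold was 6.87 without neuron library 1 (adjusted p = 0.000326) and 3.05 without neuron library 2 (adjusted p = 0.0215). Its rise at the first step was thus 14.2-fold, beside 2.8-fold for Neurog1 and 2.01-fold for Neurog2. No test compared these rises between genes.

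Neurod1, which drives differentiation of many neuron types, and Nhlh1, a factor of newly formed neurons, rose at the first step and had overlapping values in differentiating progenitors and neurons. Neurod1 measured 201, 93 and 68 in proliferating progenitors, 2585, 2873 and 2413 in differentiating progenitors, and 4251, 2730 and 2644 in the neuron libraries. The values of Nhlh1 were 241, 103 and 83 in proliferating progenitors, 2164, 2387 and 2172 in differentiating progenitors, and 2669, 1695 and 2063 in the neuron libraries. For both genes differentiating progenitors and neurons overlapped, and library 1 of neurons was the highest of all 9. Neurod1 rose 23.9-fold at the first step, from 121 ± 70.7 to 2624 ± 232 (log2 change 4.58 ± 0.35, adjusted p = 4.66e-05), and Nhlh1 rose 17.5-fold, from 142 ± 86.0 to 2241 ± 127 (log2 change 4.13 ± 0.35, adjusted p = 6.74e-05). From differentiating progenitors to neurons the log2 change of Neurod1 was 0.26 ± 0.35 (adjusted p = 0.58) and that of Nhlh1 was -0.09 ± 0.35 (adjusted p = 0.858). These standard errors leave room for changes in either direction. In neurons both genes were far above proliferating progenitors, with log2 changes of 4.84 ± 0.35 (adjusted p = 2.14e-06) for Neurod1 and 4.04 ± 0.35 (adjusted p = 6.51e-06) for Nhlh1.

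Neurod2 and Neurod6, NeuroD factors of postmitotic glutamatergic cortical neurons, rose at both steps. The 3 libraries of proliferating progenitors gave Neurod2 981, 488 and 333, those of differentiating progenitors 5342, 5735 and 5447, and those of neurons 19558, 14783 and 15510. They gave Neurod6 845, 341 and 215 in proliferating progenitors, 5717, 6832 and 6029 in differentiating progenitors, and 22003, 16738 and 17662 in the neuron group. The 3 groups were fully separate for both genes, and library 1 was the highest in proliferating progenitors and in neurons. Neurod2 rose from 601 ± 338 to 5508 ± 203 (log2 change 3.34 ± 0.32, adjusted p = 0.000137) and then to 16617 ± 2573 (log2 change 1.58 ± 0.32, adjusted p = 0.00253). Neurod6 rose from 467 ± 333 to 6193 ± 575 (log2 change 3.96 ± 0.40, adjusted p = 0.000176) and then to 18801 ± 2811 (log2 change 1.60 ± 0.40, adjusted p = 0.00826). From end to end this came to 30.4-fold for Neurod2 (log2 change 4.92 ± 0.32, adjusted p = 1.08e-06) and 47-fold for Neurod6 (log2 change 5.56 ± 0.40, adjusted p = 2.11e-06).

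Nhlh2, the second Nhlh factor, had the largest first-step change of the 8 genes. It measured 15, 13 and 4 in proliferating progenitors, 403, 480 and 402 in differentiating progenitors, and 1027, 775 and 872 in the neuron libraries. The 3 groups did not overlap, and the proliferating progenitor libraries were near the filter on low values. Nhlh2 rose from 10.7 ± 5.86 to 428 ± 44.7 at the first step (log2 change 5.36 ± 0.39, adjusted p = 3.58e-05). Its further increase to 891 ± 127 in neurons passed narrowly (log2 change 1.05 ± 0.39, adjusted p = 0.0445). That call ended without any 1 of the differentiating progenitor or neuron libraries (log2 change 0.94 to 1.15, adjusted p up to 0.11), and with each library scaled to the same total (0.84, adjusted p = 0.0947). Between neurons and proliferating progenitors the log2 change was 6.42 ± 0.39 (adjusted p = 6.29e-07).

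The signed log2 change was lower at the second step than at the first for all 8 genes, and this difference passed the test for 8 of 8, beside 16.2% of tested genes called in that direction and 15.2% in the other (31.4% in all). The median difference of log2 changes, second step minus first, was -4.32, beside -0.02 over all tested genes. It was -9.80 ± 0.94 for Neurod4 (adjusted p = 7.49e-05), -8.65 ± 0.69 for Neurog1 (adjusted p = 2.91e-05) and -4.77 ± 0.24 for Neurog2 (adjusted p = 6.1e-06), the 3 genes that turned from rise to fall. For Neurod1, Nhlh2 and Nhlh1 it was -4.32 ± 0.61, -4.31 ± 0.67 and -4.21 ± 0.60, with adjusted p of 0.000655, 0.00111 and 0.000679. Neurod6 and Neurod2 had the smallest differences, -2.36 ± 0.70 (adjusted p = 0.0301) and -1.76 ± 0.56 (adjusted p = 0.0404). Both of these calls ended in 6 of the 9 fits that each left out 1 library, namely proliferating progenitor 2, any differentiating progenitor, or neuron 2 or 3, with adjusted p up to 0.103 and 0.117.

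**Figure D2:**
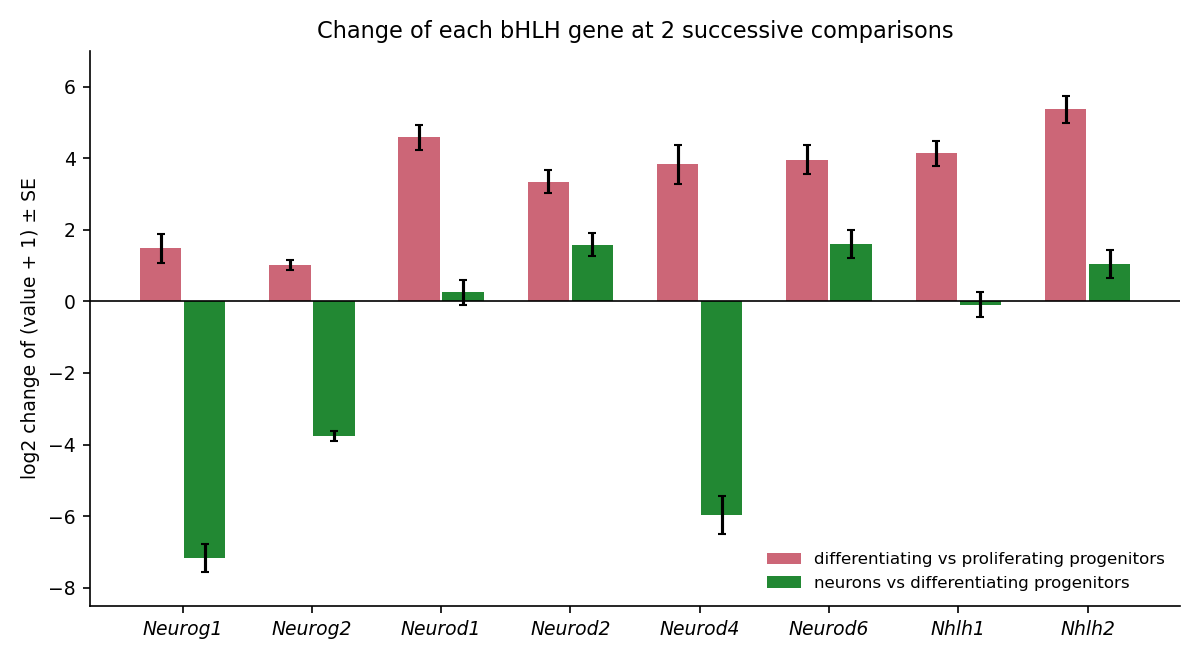
Log2 change of each bHLH gene from proliferating to differentiating progenitors (first step) and from differentiating progenitors to neurons (second step), as bars on the log2(value + 1) scale with error bars of 1 SE. All 8 first-step changes lie above 0, from 1.01 for Neurog2 to 5.36 for Nhlh2, while second-step changes run from -7.17 for Neurog1 to 1.60 for Neurod6.

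The authors' deposited table gave fold changes of group means that led to the same calls, with 8, 6 and 8 of the 8 genes under 0.05 in the 3 comparisons, all of them also called by limma. In the authors' deposited table the first-step fold ran from 2.00 for Neurog2 to 40.22 for Nhlh2. At the second step the authors' deposited table gave Neurod1 a fold of 1.22 (adjusted p = 0.76) and Nhlh1 a fold of 0.96 (adjusted p = 0.91). For Nhlh2, the narrow call above, the authors' deposited table gave a fold of 2.08 with an adjusted p of 8.9e-06. These values come from the same 9 libraries and are no independent check.

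Sequence just upstream of the genes is shown because most of these factors bind E-boxes, the 6-base word CANNTG, and because members of the group are known to act on each other. Promoters were taken from a RefSeq table of assembly GRCm38.p6, in which all 8 genes matched, Neurod4 with 2 start sites, and the 250 bases before each start were read, 5′ to 3′ on the gene's strand. The word CAGATG, or its reverse complement CATCTG, is an E-box often bound by Neurogenin and NeuroD factors. It stood in the promoter of 3 of the 8 genes, Neurod2, Nhlh1 and Nhlh2, against 14.4% of the 32851 promoters in the table. Its first base lay 118 bases before the start of Neurod2, 203 before Nhlh1 and 127 before Nhlh2. The general word CANNTG, which includes the former, stood in 5 of the 8, adding Neurod1 and Neurod6, against 66.2% of all promoters. Here follow the 3 promoters with the word in capitals and, for comparison, that of Neurod6, the near neighbour of Neurod2 in expression, which has no such word in this window.
Nhlh1 (chr1:172057597-172057846, minus strand): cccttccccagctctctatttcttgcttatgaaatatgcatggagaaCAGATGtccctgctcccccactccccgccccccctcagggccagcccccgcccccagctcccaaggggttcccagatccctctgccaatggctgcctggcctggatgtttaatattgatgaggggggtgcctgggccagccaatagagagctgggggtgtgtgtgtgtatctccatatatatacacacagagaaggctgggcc
Nhlh2 (chr3:102009895-102010144, plus strand): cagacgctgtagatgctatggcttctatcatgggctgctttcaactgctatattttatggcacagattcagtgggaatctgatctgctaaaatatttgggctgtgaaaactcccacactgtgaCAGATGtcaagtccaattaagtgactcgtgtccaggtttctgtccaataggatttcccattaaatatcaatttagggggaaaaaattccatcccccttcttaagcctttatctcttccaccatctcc
Neurod2 (chr11:98329646-98329895, minus strand): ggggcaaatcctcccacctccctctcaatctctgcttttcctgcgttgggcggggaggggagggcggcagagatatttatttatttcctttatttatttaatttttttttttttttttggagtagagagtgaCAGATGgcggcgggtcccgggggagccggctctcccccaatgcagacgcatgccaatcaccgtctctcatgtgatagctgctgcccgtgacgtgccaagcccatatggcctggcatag
Neurod6 (chr6:55681264-55681513, minus strand): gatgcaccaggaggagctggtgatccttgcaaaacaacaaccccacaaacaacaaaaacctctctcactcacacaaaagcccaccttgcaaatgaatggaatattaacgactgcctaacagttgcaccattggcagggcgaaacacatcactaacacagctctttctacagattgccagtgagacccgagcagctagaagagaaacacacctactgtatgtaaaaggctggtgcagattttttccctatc

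A match describes the letters alone and is not a binding site, and no match says only that the letters are not in this window. The 3 genes with the word did not share one expression pattern, since Nhlh1 did not pass the test at the second step while Neurod2 and Nhlh2 rose. The genes also differed in base composition. The Neurog1 promoter held 29 CpG dinucleotides at 71.2% G and C, and that of Neurod1 held 22 at 67.6%, while those of Nhlh1 and Nhlh2 held 2 each. The median over all promoters was 6 CpG and 52.4% G and C.

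Divided by gene length, the levels can be compared between genes, and their order changed from group to group. Here a level is normalised read counts per kb of gene length as the authors give it. In proliferating progenitors Neurog2 led with 2885 ± 403 per kb, rank 152 of the 15828 tested genes. Neurod6 at 217 ± 155, Neurod2 at 191 ± 108 and Neurog1 at 188 ± 53.1 per kb followed, and the ranges of these neighbours overlapped. Nhlh1 at 57.8 ± 34.9 and Neurod1 at 44.2 ± 25.9 per kb overlapped as well, and Neurod4 at 14.5 ± 7.18 and Nhlh2 at 3.18 ± 1.75 per kb came last.

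In differentiating progenitors Neurog2 still led, with 5770 ± 459 per kb at rank 46, and most neighbours in the order were now apart. Neurod6 had 2875 ± 267 and Neurod2 1753 ± 64.8 per kb. Neurod1 at 961 ± 85.2 and Nhlh1 at 909 ± 51.3 per kb overlapped, and Neurog1 at 515 ± 4.22, Neurod4 at 196 ± 23.3 and Nhlh2 at 128 ± 13.3 per kb followed in separate ranges.

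In neurons Neurod6 led with 8728 ± 1305 per kb, rank 30 of all tested genes, and Neurod2 followed with 5289 ± 819 per kb at rank 66. Neurod1 at 1176 ± 331 and Nhlh1 at 869 ± 200 per kb overlapped. Neurog2 had dropped to the fifth place with 428 ± 64.5 per kb, ahead of Nhlh2 with 266 ± 37.9 per kb. Neurod4 at 3.59 ± 3.16 and Neurog1 at 3.42 ± 2.12 per kb could not be told apart by their ranges.

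The summed level of the 8 genes was 3601 ± 772 per kb in proliferating progenitors, 13107 ± 918 in differentiating progenitors and 16763 ± 2749 in neurons. Neurog1 and Neurog2 together made up 86.2% ± 5.76 of that sum in proliferating progenitors, 47.9% ± 0.868 in differentiating progenitors and 2.58% ± 0.0278 in neurons. Neurod2 and Neurod6 went the opposite way, with 10.7% ± 4.62, 35.3% ± 0.239 and 83.7% ± 0.976. The pair of Nhlh genes held 1.61% ± 0.608, 7.92% ± 0.196 and 6.74% ± 0.456, and Neurod1 with Neurod4 held 1.56% ± 0.538, 8.83% ± 0.461 and 6.95% ± 0.835. Differentiating progenitors thus were the group in which the Neurogenin and the NeuroD shares were closest. Shares of a sum depend on each other and were not tested.

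**Figure D3:**
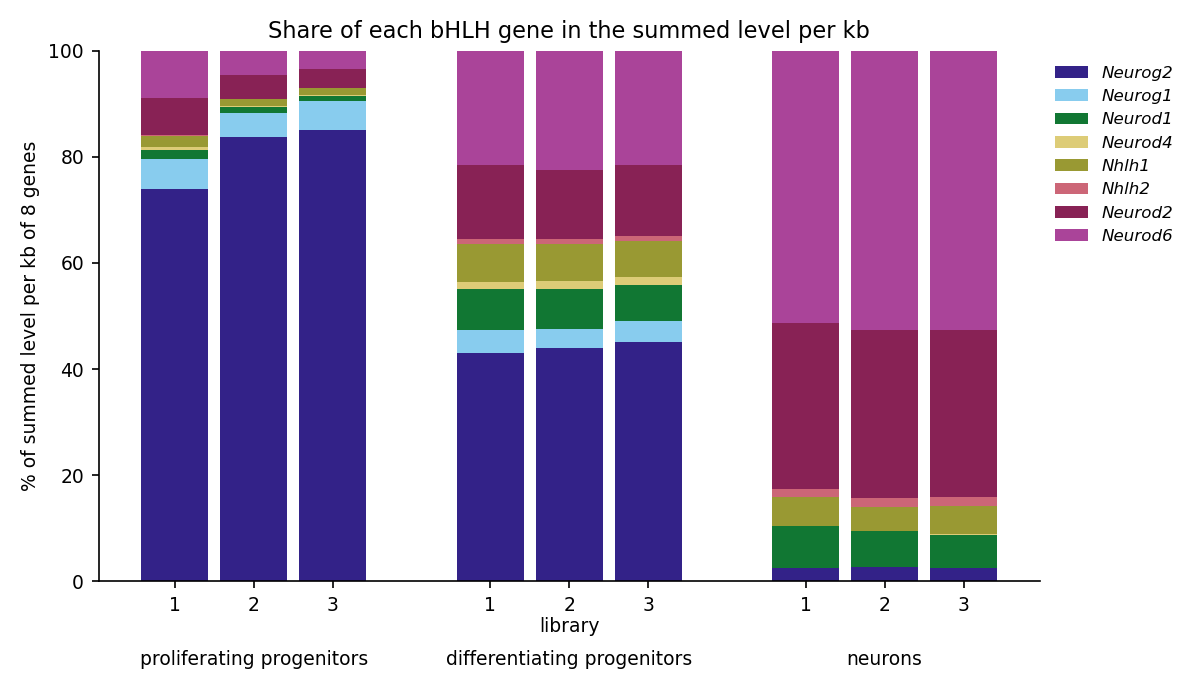
Share of each bHLH gene in the summed per-kb level of the 8 genes (vertical axis, percent), 1 stacked bar for each of the 9 libraries. Neurog2 fills 74.0% to 85.1% of the bar in proliferating progenitors and about 2.56% in neurons, where Neurod6 averages 52.1% and Neurod2 31.6%.

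Ratios between paralogs within a library do not depend on the scaling of that library. Neurog2 exceeded Neurog1 per kb by 13.1, 18.5 and 15.6 times in libraries 1, 2 and 3 of proliferating progenitors, by 10.2, 12.2 and 11.3 times in differentiating progenitors and by 92.4, 105 and 333 times in neurons. The groups did not overlap, and the neuron ratios rest on the few reads of Neurog1. Nhlh1 exceeded Nhlh2 by 21.9, 10.8 and 28.2 times, then by 7.31, 6.77 and 7.35 times, then by 3.54, 2.98 and 3.22 times in the same order. The lead of Nhlh1 was thus smaller in each later group, without overlap. The proliferating progenitor ratios rest on the few reads of Nhlh2, at 15, 13 and 4, and are imprecise.

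Neurod6 and Neurod2 were near parity per kb in proliferating progenitors, with ratios of 1.26, 1.02 and 0.942. In differentiating progenitors they were 1.56, 1.74 and 1.61, and in neurons 1.64, 1.65 and 1.66. Neuron values lay within the range of differentiating progenitors, and proliferating progenitors lay below both. Neurod2 exceeded Neurod1 by 4.24, 4.56 and 4.25 times in proliferating progenitors, by 1.79, 1.73 and 1.96 times in differentiating progenitors, and by 4.0, 4.7 and 5.1 times in neurons. The differentiating progenitors were therefore the group in which Neurod1 came closest to Neurod2.

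Of the 12 tests on these 4 ratios, 10 gave p = 0.1 in the exact two-sided permutation test, the smallest p that 3 libraries against 3 can give (0.12 after Benjamini-Hochberg adjustment over the 12). None could thus pass the threshold. The exact permutation test gave p = 0.8 (adjusted 0.8) for Neurod2 to Neurod6 in neurons against differentiating progenitors, a log2 difference of -0.01, and p = 0.6 (adjusted 0.655) for Neurod1 to Neurod2 in neurons against proliferating progenitors, a log2 difference of -0.07.

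All 8 genes were highest in library 1 among proliferating progenitors and 8 of 8 among neurons, but 1 of 8, Neurog1, among differentiating progenitors. The share of all tested genes that were highest in library 1 was not counted. These counts are therefore not read as particular to the 8 genes. In proliferating progenitors library 1 exceeded the mean of libraries 2 and 3 by 1.22 times for Neurog2, 3.04 times for Neurod6 and between these for the others. Tubb3 was 1.85 times higher there, and the 7 neuron markers summed to 11194, 9029 and 7106 in libraries 1, 2 and 3. The 7 interneuron and ventral markers summed to 2191, 1191 and 838, and the 4 red blood cell markers to 176652, 70020 and 78004. The part of these markers in the values of library 1 was not tested. With replicates 2 and 3 alone, a setting chosen after seeing the data, all 8 first-step calls held. Each log2 change was larger, from 1.17 for Neurog2 to 5.72 for Nhlh2. This increase follows largely from leaving out each gene's highest proliferating progenitor library, so it adds no support.

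Other cell types that the gates could hold were followed by their markers. The 6 Cajal-Retzius markers, Reln among them, summed to 90 to 125 in proliferating progenitors, 1031 to 1306 in differentiating progenitors and 17432 to 20377 in neurons, so the sum was higher in each later group, as were Neurod2, Neurod6 and Nhlh2. Reln carried most of it, and the other 5 markers summed to 17 to 35, 429 to 497 and 1358 to 1615. Ebf2 alone of the 6 fell at the second step (log2 change -1.41 ± 0.25, adjusted p = 0.00099). The 7 interneuron markers summed to 838 to 2191, 1292 to 4495 and 7174 to 8309. The 4 red blood cell markers summed to 70020 to 176652 in proliferating progenitors, 140 to 1328 in differentiating progenitors and 51 to 182 in neurons. The 4 endothelial markers summed to 128 to 382, 153 to 199 and 26 to 63. Kdr carried most of the differentiating progenitor sum, with a mean of 133 there and 108 in proliferating progenitors. Cldn5, Pecam1 and Cdh5 averaged 28, 33 and 58.3 in proliferating progenitors and 7.33, 13.3 and 16 in differentiating progenitors. Of the 4, only Pecam1 passed limma at the first step (adjusted p = 0.0447), and that call ended in 7 of the 9 fits without 1 library. The 3 microglial markers summed to 126 to 157, 68 to 88 and 25 to 33. No marker of any list was at 0 in all libraries. The part of these cells in the changes of the bHLH genes was not tested.

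Across the 9 libraries some of the 8 genes followed each other closely on the log2(value + 1) scale. Pearson's r was 0.999 between Neurod2 and Neurod6, 0.997 between Neurod1 and Nhlh1 and 0.991 between Neurog1 and Neurog2. Neurod4 was closer to Neurog2 (r = 0.899) than to any other of the 8, and the lowest value was -0.572, between Neurog1 and Neurod2. The libraries fall into 3 sorted groups and share their replicate structure, so these values describe the group pattern.

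The genes most like each of the 8 were sought among 11349 other tested genes with a mean of at least 100, by the same measure over the 9 libraries. This measure compares the shape of a pattern and takes no account of the size of a change. For Neurod2 and Neurod6 this was Dcx, a microtubule protein of migrating neurons, with r of 0.9996 and 0.9992. Dcx measured 1944, 778 and 499 in proliferating progenitors, 13118, 15730 and 13285 in differentiating progenitors, and 59043, 47575 and 47049 in the neuron libraries, with library 1 highest in the first and last group, as for Neurod2. Next came 6530402F18Rik (0.9994) and Plxna4, a semaphorin co-receptor (0.9987), for Neurod2, and Cplx2, a complexin of synaptic vesicle release, and 6530402F18Rik (both 0.9991) for Neurod6. Neurod4 was most like Eomes, a T-box factor of intermediate progenitors (0.9954), Mfng, a glycosyltransferase that modifies Notch (0.9950), and BC034090 (0.9913).

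Neurod1 and Nhlh1 had the same leading pair, 6430704M03Rik (0.9983 and 0.9982) and Clvs1, which encodes a clavesin (0.9979 and 0.9970). For Nhlh1, A930024E05Rik (0.9969) followed. Neurog2 was most like Magi1, a scaffold protein of cell junctions (0.9973), Chd7, a chromatin remodeller (0.9968), and Zc3h12c (0.9967). For Neurog1 they were Cflar, a regulator of caspase-8 (0.9952), Zc3h12c (0.9951) and Hmgn5, a nucleosome-binding protein (0.9927). Their changes were smaller than those of Neurog1. Cflar and Hmgn5 did not pass limma at the first step (log2 change 0.25, adjusted p = 0.156, and 0.41, adjusted p = 0.107). In neurons they fell 3.34-fold and 4.65-fold below differentiating progenitors, and Zc3h12c 4.97-fold, beside 144-fold for Neurog1. The pattern of Nhlh2 was closest in A730020E08Rik (0.9995), Rnd2, a small GTPase of neuronal migration (0.9965), and Chga, which encodes chromogranin A (0.9963).

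The E proteins, dimer partners of these factors, had log2 changes between -1.38 and 0.53 at the 2 steps. At the first step 2 of 3 were higher, with a list median of 0.37, and at the second step 3 of 3 were lower, with a median of -0.54. Of all tested genes, 13.8% were called higher and 11.1% lower at the first step, and 27.6% and 26.4% at the second. The same shares stand beside the counts of each related list below. The lists were chosen with earlier results of these data known, so their counts are a description. Tcf4 averaged 21605 in proliferating progenitors, 31189 in differentiating progenitors and 26477 in neurons. It rose at the first step (log2 change 0.53 ± 0.08, adjusted p = 0.00168) and fell slightly at the second (-0.24 ± 0.08, adjusted p = 0.0364). Tcf3 averaged 8272, 8002 and 3063, and fell at the second step (-1.38 ± 0.12, adjusted p = 1.28e-05). For Tcf12 the first-step value was 0.37 ± 0.11 (adjusted p = 0.0408). The calls of Tcf12 at the first step and of Tcf4 at the second were narrow and ended in 7 and 6 of the 9 fits without 1 library (adjusted p up to 0.14 and 0.111).

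The Id genes, whose products sequester E proteins, split. At the first step 1 of 4 was higher and 1 lower, with a median of -0.04. Id2 averaged 602, 916 and 4344 and rose at both steps (log2 changes 0.62 ± 0.13, adjusted p = 0.00926, and 2.24 ± 0.13, adjusted p = 9.46e-07). Id4 averaged 7462, 3216 and 292 and fell at both (-1.28 ± 0.27, adjusted p = 0.00748, and -3.42 ± 0.27, adjusted p = 5.1e-06). Id1 and Id3 fell at the second step, so 1 of 4 was higher and 3 lower there, with a median of -2.73. At the first step their values were -0.69 (adjusted p = 0.155) and 0.75 (adjusted p = 0.0895), and the count of 2 called genes became 4, 2 in each direction, with the replicate number as a block.

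Hes and Hey repressors were lowest in neurons. At the second step 5 of 5 were lower, with a median of -4.14, and at the first step 3 of 5, Hes1, Hey1 and Heyl, with a median of -0.62. Hes1, a main Notch target in radial glia, averaged 1977, 1003 and 13.3 (log2 changes -1.0 ± 0.20, adjusted p = 0.00624, and -6.10 ± 0.20, adjusted p = 6.18e-08). Hes5, another Notch target and one of the radial glia markers, averaged 4479, 3043 and 38.7. Its first-step value was -0.62 (adjusted p = 0.342), and it fell at the second (-6.16 ± 0.42, adjusted p = 2.18e-06). Libraries 1, 2 and 3 held 6710, 3586 and 3142 for Hes5 in proliferating progenitors and 5102, 1978 and 2048 in differentiating progenitors. Hes5 was thus lower in differentiating progenitors for each replicate number, a pairing that the main model did not use. Heyl, at 19, 45 and 74 in proliferating progenitors, passed the filter only through the group where it was high, so its calls add no support to these counts. Of the other 4 genes, 2 were lower at the first step and 4 at the second. The first-step call of Hey1 (-0.62 ± 0.16, adjusted p = 0.0201) ended without library 2 or 3 of either progenitor group (adjusted p from 0.051 to 0.0768). The first-step count of 3 was 1 without proliferating progenitor library 2 or 3, where Heyl also dropped below the filter. The second-step call of Heyl, a gene with a mean of 4.67 in differentiating progenitors, ended with a pseudocount of 5 (-0.78, adjusted p = 0.178). It also ended without differentiating progenitor library 1 or 3, or neuron library 1 or 3 (adjusted p up to 0.136). Without any 1 proliferating progenitor library Heyl was below the filter, so those fits did not test it.

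**Figure D4:**
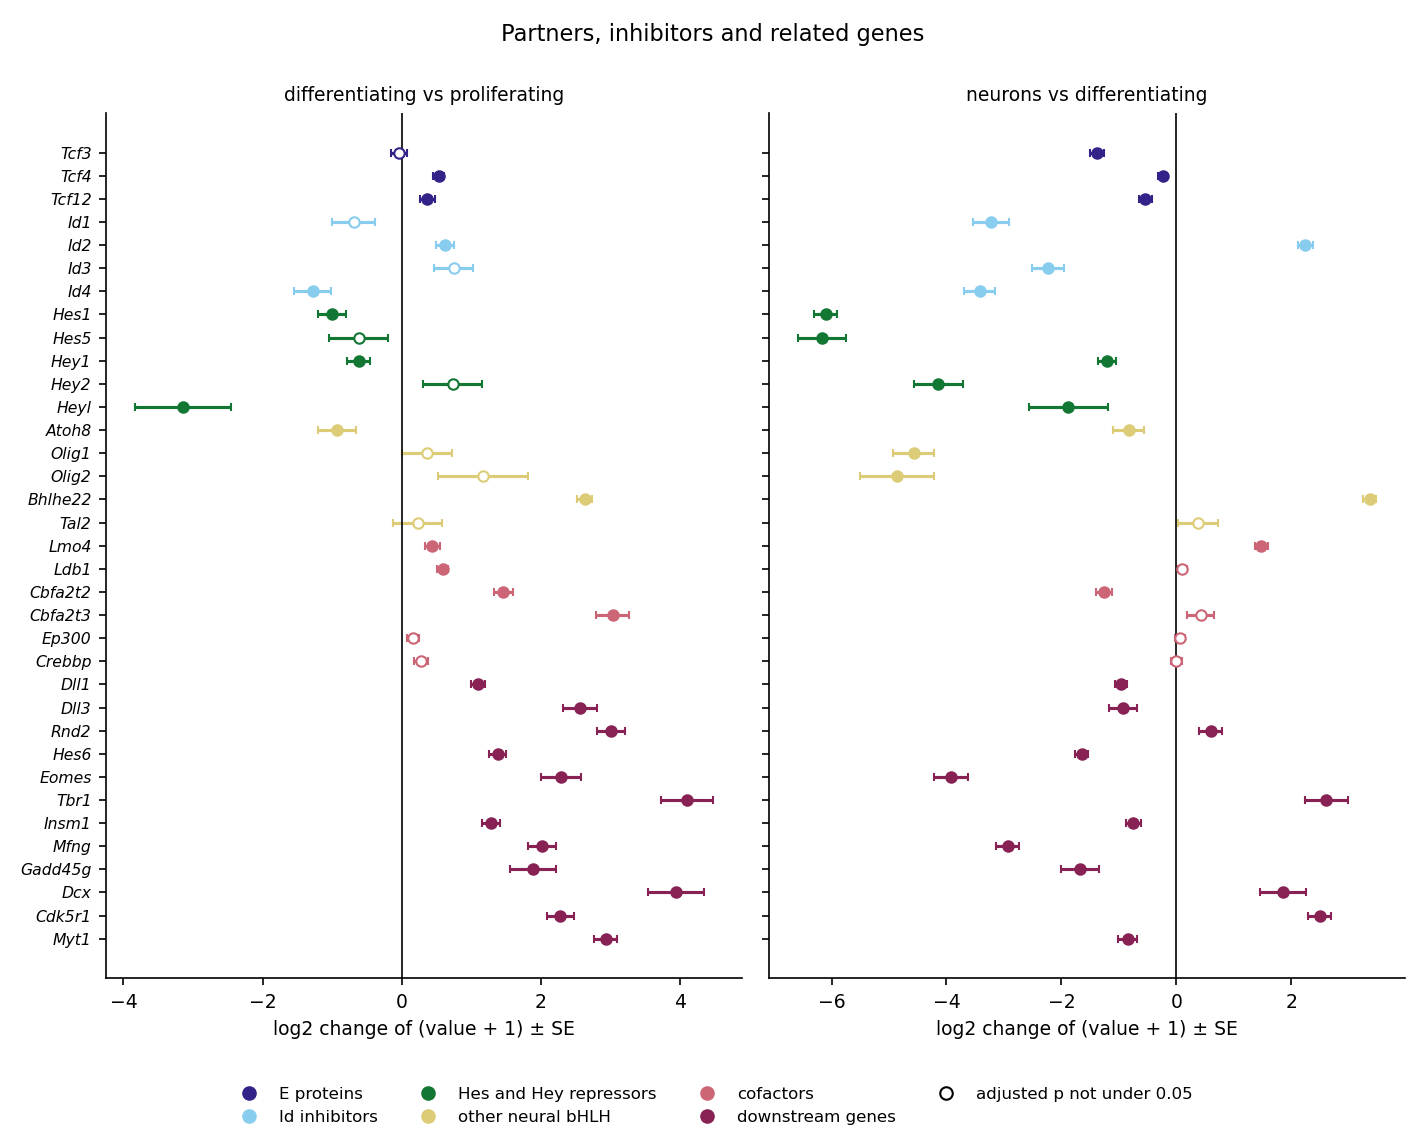
Log2 changes of genes related to the bHLH cascade at the first step and at the second step on the log2(value + 1) scale, 1 point per gene shown with a bar of 1 SE, coloured by list, open where the adjusted p was not under 0.05. All 12 downstream genes lie above 0 at the first step, and all 5 Hes and Hey genes lie below 0 at the second.

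Of 12 other neural bHLH genes, 9 were found in the table and 6 passed the filter. Bhlhe22, a repressor of cortical neuron subtypes, averaged 75.3, 473 and 4863 and rose at both steps (log2 changes 2.63 ± 0.11, adjusted p = 5.61e-06, and 3.36 ± 0.11, adjusted p = 6.06e-08). Olig2, a factor of ventral progenitors and of the oligodendrocyte lineage, averaged 60.7, 114 and 3.33. Its first-step value was 1.17 (adjusted p = 0.24) and it fell at the second step (-4.86 ± 0.65, adjusted p = 0.000182). Over the list, 1 of 6 was higher at the second step and 4 lower, with a median of -1.52, and at the first step 1 was higher and 1, Atoh8, lower, with a median of 0.33. With the replicate number as a block the first-step count became 4, 3 higher and 1 lower, and the first-step call of Atoh8 ended in 6 of 9 fits without 1 library (adjusted p up to 0.12). The second-step call of Atoh8 ended in 3 of 9, with adjusted p up to 0.0873.

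Among cofactors of bHLH factors, 4 of 6 rose at the first step, with a median of 0.52. Cbfa2t3, a corepressor of the ETO family, ran from 116 to 251 in proliferating progenitors, 1211 to 1353 in differentiating progenitors and 1633 to 1841 in neurons (first-step log2 change 3.03 ± 0.24, adjusted p = 5.65e-05, second-step value 0.42, adjusted p = 0.179). Its relative Cbfa2t2 averaged 2671, 7290 and 3045, rose at the first step (1.46 ± 0.14, adjusted p = 0.000121) and fell at the second (-1.26 ± 0.14, adjusted p = 5e-05). Lmo4, a LIM-only adaptor, averaged 515, 702 and 1958 and rose at both steps, and Ldb1, its binding partner, rose at the first. The first-step call of Lmo4 (0.44 ± 0.11, adjusted p = 0.0158) ended without proliferating progenitor library 3 or differentiating progenitor library 2 (adjusted p = 0.0547 and 0.0536). Values for the coactivators Ep300 and Crebbp at the first step were 0.16 (adjusted p = 0.242) and 0.28 (adjusted p = 0.0623).

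Genes known as targets or later members of proneural programmes rose at the first step, 12 of 12, beside 13.8% of all tested genes. Their median was 2.29. At the second step 4 rose, Rnd2, Tbr1, Dcx and Cdk5r1, and 8 fell, beside 27.6% and 26.4% of all tested genes. The median there was -0.89. The list shares 3 genes with the intermediate progenitor markers and 1 with the neuron markers. Dll1, the Notch ligand induced by proneural factors, averaged 3499, 7519 and 3874 (log2 changes 1.10 ± 0.10, adjusted p = 0.000126, and -0.96 ± 0.10, adjusted p = 4.71e-05). Eomes averaged 4670, 22480 and 1560 and followed Neurod4 up (2.29 ± 0.29, adjusted p = 0.000498) and down (-3.92 ± 0.29, adjusted p = 3.37e-06). Hes6, an inhibitor of Hes1, averaged 1893, 4875 and 1554 with the same shape.

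Tbr1, a T-box factor of deep-layer neurons, averaged 178, 2686 and 16390 and rose at both steps (4.10 ± 0.37, adjusted p = 9.25e-05, and 2.61 ± 0.37, adjusted p = 0.000243). Cdk5r1, the activator of the neuronal kinase Cdk5, averaged 530, 2498 and 14072 (2.28 ± 0.20, adjusted p = 9.14e-05, and 2.49 ± 0.20, adjusted p = 6.85e-06). Rnd2, a known target of Neurog2, averaged 757, 5987 and 9016 and rose at the first step by 3.01 ± 0.20 on the log2 scale (adjusted p = 2.43e-05). Its second-step call (0.60 ± 0.20, adjusted p = 0.028) ended in 5 of 9 fits without 1 library (adjusted p up to 0.0877) and with equal library totals (0.38, adjusted p = 0.123). Neurog2 itself was 13.5-fold lower in neurons than in differentiating progenitors, as given above.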

How the data were processed

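RNA of 9 sorted pools was sequenced, and the sample labels gave the groups. The submitters' processing notes name DESeq 1.8.1, BWA, CASAVA 1.8.0, bedtools 2.11 and the mouse build mm9. The role of each and the strand setting of the counting are not given in the sources used here. Gene identifiers are of Ensembl 61, per the file headers. Each score in the deposited table is a normalised read count, rounded to a whole number, apparently reads over a size factor. The authors also deposited the ratio of group means as a fold, with an adjusted p-value, and each gene's length. How much 1 read was worth in a library was estimated from the small whole numbers that occur; being inexact, these estimates were not used to fit a count model.

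The test was limma 3.58.1 (R 4.3.3) on log2(value + 1), with a trend of variance on mean level. One model with a mean for each of the 3 groups covered all 9 libraries and left 6 residual degrees of freedom. It included the 15828 genes that reached 10 in 3 or more libraries, and Benjamini-Hochberg adjustment ran over all of them. The script was tested on simulated data with known changes. Other steps used Python 3.11.15, numpy 2.4.6, pandas 2.3.3, scipy 1.17.1 and matplotlib 3.10.9. Promoters came from a RefSeq table of GRCm38.p6, another build than that of the files, so coordinates were not joined. In that assembly 0 of the 8 genes overlapped another RefSeq gene.

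The 8 genes and the related and marker lists were chosen with earlier results of these data known. Named are the 8 genes, members of the related lists, the reporter genes and, for each of the 8, the 3 genes with the highest r; a few of these are not reported here. Libraries of the same replicate number deviated together from their group means (9 pairs, r across genes from 0.507 to 0.767). The 18 pairs of unequal number gave -0.64 to 0.428. The main model and the permutation tests did not use this pairing. It entered through an alternative model with a replicate block, which had 4 residual degrees of freedom. Sample titles run in sequence within a replicate number, but the labels do not say what such samples share. Other alternatives were pseudocounts of 0.5 and 5, no filter or a minimum of 50, equal library totals, no trend, only the groups compared, ratios without length, leaving out each library in turn and, chosen after seeing the data, replicates 2 and 3 only.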

Additional observations from a re-analysis of the deposited data

How the results depend on the processing

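Of the log2 changes of the 8 bHLH genes under all alternatives, 540 stayed on their side of the threshold and 28 kept direction but passed no longer. No called change turned its sign, and 1 value without a call did, Nhlh1 at the second step without neuron library 2 (0.07). The weaker ones belong to 4 results. The second-step change of Nhlh2 was 1.05 with a pseudocount of 0.5 (adjusted p = 0.0545) and without the trend of variance (adjusted p = 0.0582), 0.84 with equal totals (adjusted p = 0.0947) and 0.90 with replicates 2 and 3 only (adjusted p = 0.0732), and ran from 0.94 to 1.15 with 1 library left out. The first-step change of Neurog1 ran from 1.37 to 1.70 with 1 library left out. The difference of steps was -1.76 for Neurod2 without the trend of variance (adjusted p = 0.062), and ran from -2.19 to -1.41 for Neurod2 and from -2.91 to -1.93 for Neurod6 with 1 library left out. The number of the 8 genes called then ran from 7 to 8 at the first step, from 5 to 6 at the second, from 8 to 8 between neurons and proliferating progenitors and from 6 to 8 for the difference of steps.

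With the replicate block in limma no call among the 8 genes changed, and the second-step change of Nhlh2 kept its size with an adjusted p of 0.0106. The first-step change of Neurog1 had an adjusted p of 0.00214 in that fit. The differences of steps of Neurod2 and Neurod6 had adjusted p of 0.005 and 0.00448 there. The block raised the number of all genes called from 3944 to 7282 at the first step (3793 higher, 3489 lower) and from 4977 to 8150 for the difference of steps (3880 higher, 4270 lower), so that 46% and 51.5% of tested genes were called. Equal library totals moved the all-gene median log2 change from -0.01 to -0.23 at the second step and from -0.02 to -0.31 between neurons and proliferating progenitors, with 3353 higher and 5589 lower calls, and 3869 and 6605, in place of 4368 and 4183, and 5099 and 4924.

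The log2 ratio of Neurod2 to Neurod6 in neurons against differentiating progenitors ran from -0.06 to 0.02 with 1 library left out, and that of Neurod1 to Neurod2 in neurons against proliferating progenitors from -0.17 to 0.00. Among related genes and markers, 2 values turned where a call was made in 1 of the settings: Lhx6 at the first step was 0.91 with replicates 2 and 3 only, and Crebbp in neurons against proliferating progenitors was -0.00 with equal totals. Counted with or without a call, 32 values of 17 results had the other sign, Tcf3 at the first step among them. The cause of these changes was not tested. Values of Neurog1 and Neurod4 in neurons and of Nhlh2 in proliferating progenitors rest on few reads, since no library there holds more than 24 normalised reads.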
